A study of Mus musculus with 7 samples.

Results

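GP66-specific Th1 cells of day 7 were taken as the spleen T cells that held at least 1 Cxcr6 UMI and no Cxcr5 UMI in 2 single-cell libraries sorted with the GP66:I-Ab tetramer. A UMI is a counted transcript molecule, and the tetramer is the class II molecule I-Ab loaded with the GP66 peptide of lymphocytic choriomeningitis virus. A cell was a barcode with at least 500 detected genes and at most 10% of its UMIs from mitochondrial genes. By this rule 669 of 4418 cells were members, 354 of 2261 (15.7%) in the wild-type library and 315 of 2157 (14.6%) in the Thpok-sufficient library, out of 16427 cells in the whole series. Members were thus chosen by their measured Cxcr6 and Cxcr5 UMIs, and they were compared with the other cells of the same library.

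The study captured activated T cells from the spleen after infection with the virus (LCMV Arm, C57bl/6 background), in 7 libraries at day 7 or day 30. The wild-type library holds CD44high CD4+ GP66:I-Ab+ cells. The Thpok-sufficient library comes from Ox40-Cre+ Thpokwt/wt RosaYFP+ mice and holds CD44high GP66:I-Ab+ RosaYFP+ cells, with no CD4 gate named. The libraries used for comparison were 2 of total CD44high T cells from wild-type mice at day 7, in which CD4+ and CD8+ cells were sorted apart and mixed in equal parts, 1 each of Ox40-Cre+ Thpokfl/fl RosaYFP+ cells (Thpok-deleted) at day 7 and day 30, and 1 of Ox40-Cre+ Thpokwt/wt RosaYFP+ cells at day 30. In these mice Cre is driven by the Ox40 promoter, so the yellow reporter marks T cells that were activated, and both the Thpok-sufficient and the Thpok-deleted groups carry the Cre and the reporter. The differing genotypes place the wild-type and Thpok-sufficient cells in different animals, while the number of mice per library is not given in the labels used. The p-values therefore measure how the differences between classes vary between these libraries, part of which may be technical. The level of each library is taken out in the fit. Standard errors and p-values lean on a spread shared across genes, and single genes can vary more between libraries than they show.

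Th1 cells are the helper T cells that arise in infections with intracellular pathogens. The transcription factor T-bet, encoded by Tbx21, drives their production of interferon gamma, encoded by Ifng, which activates macrophages and antiviral defences. They can leave the lymphoid organ and travel to inflamed tissue with receptors such as CXCR6, whereas follicular helper (Tfh) cells carry CXCR5, rely on Bcl6 and Tcf7, and help B cells. In LCMV infection both kinds arise from the same GP66-specific precursors.

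Gzmb and Gzma (granzymes, the proteases of cytotoxic granules) and Havcr2 (the inhibitory receptor TIM-3) stood well above the other cells in both libraries. Their promoters share a Runx motif close to the start of transcription, and the 250 bases before each start are shown for that reason. The motif was found in 4 of 40 promoters of named genes higher in members and in 1 of 27 of those lower. The 3 shown were picked from the 4, so the motif is not a common trait of the named genes. The sequences are those of RefSeq on GRCm38.p6, 5′ to 3′ on the gene's strand, with the motif matches in capitals. Gzmb lies on the minus strand at chr14:56262335-56262584, Gzma on the minus strand at chr13:113100982-113101231 and Havcr2 on the plus strand at chr11:46454681-46454930. Distances are from the RefSeq start, and the GENCODE vM21 annotation places the Gzmb start further downstream, at chr14:56262260.
Gzmb: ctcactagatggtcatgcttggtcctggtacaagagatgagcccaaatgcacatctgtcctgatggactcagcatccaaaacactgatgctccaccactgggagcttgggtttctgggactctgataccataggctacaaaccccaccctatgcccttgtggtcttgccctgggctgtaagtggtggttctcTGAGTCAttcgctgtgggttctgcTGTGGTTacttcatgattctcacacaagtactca
Gzma: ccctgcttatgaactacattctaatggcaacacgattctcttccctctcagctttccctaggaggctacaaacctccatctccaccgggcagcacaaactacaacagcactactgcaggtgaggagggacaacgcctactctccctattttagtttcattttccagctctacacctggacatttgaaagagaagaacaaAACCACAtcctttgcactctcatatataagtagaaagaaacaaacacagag
Havcr2: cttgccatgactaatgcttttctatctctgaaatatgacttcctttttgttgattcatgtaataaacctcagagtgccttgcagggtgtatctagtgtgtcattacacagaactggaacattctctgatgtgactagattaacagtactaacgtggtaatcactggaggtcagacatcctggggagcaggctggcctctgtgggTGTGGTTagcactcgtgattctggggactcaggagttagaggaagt
The Runx motif was searched as TGTGGTT on both strands and starts 34 bases before the Gzmb start, 51 before the Gzma start (on the opposite strand, so that its complement AACCACA is read here) and 46 before the Havcr2 start. Gzmb also has an AP-1 motif, searched as TGACTCA and read here as its complement TGAGTCA, from 58 bases before its start, and no capitals overlap. In the same 250 bases before the start, the Runx motif was present in 4.46% of all 27025 promoters, in 3.38% of the 7682 promoters of genes tested, in 3.99% of those of genes higher in members and in 3.49% of those of genes lower in members. The AP-1 motif was present in 4.43%, 2.59%, 3.54% and 2.67% of these sets. A match describes the letters of the promoter and not binding by a factor.

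Before any test the identity of the cells was checked. Cd3e, a chain of the T cell receptor complex, had a UMI in 85.3% of members of the wild-type and 81.0% of the Thpok-sufficient library. Cd4 had a UMI in 70.6% and 62.9% of members, against 72.4% and 66.5% of the other cells. Of the 2 CD8 genes, Cd8a gave 11 UMIs in 3 members of the wild-type library and 9 UMIs in 4 members of the Thpok-sufficient library. Cd8b1 gave 61 UMIs in 26 members (7.34%) and 62 UMIs in 29 members (9.21%), or 24.7 and 29.2 CPM (UMIs scaled to a common library total, here before TMM scaling), against 12.9 and 12.2 CPM in the other cells and 12.5 and 16.3 CPM in empty droplets. Single cells gave 14 and 16 of these member UMIs. The 6 natural killer markers summed to 25.5 and 5.64 CPM in members against 5.05 and 7.62 in the other cells. Of the 63 UMIs behind the first value 47 were in 1 cell, and Ncr1 was at 0 in every class. The 8 myeloid markers summed to 299 and 178 CPM in members against 146 and 148, and 1 wild-type member held 278 of these UMIs, 124 of them Lyz2. The 4 innate-like T cell markers summed to 1.62 and 0.941 CPM against 3.62 and 2.41, with Zbtb16 at 0 in all of them. Foxp3, which defines regulatory T cells, gave 2 and 3 UMIs, in 1 member of each library. The part of such cells in the differences is measured only where cells rich in these markers were left out, as given for the granzymes.

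Cxcr6 and Cxcr5 made the classes and are given as a description. Cxcr6 stood at 391 and 406 CPM (from here on after edgeR's TMM scaling, unless another is named) in members and at 9.05 and 5.51 in the other cells, which include 104 cells with a UMI of both receptors. Empty droplets, which hold free RNA, had 41.4 and 58.0 CPM of Cxcr6 (53 and 32 UMIs), and 137 and 134 members rested on a single Cxcr6 UMI. Members were deeper than the other cells, with median UMIs of 5945.5 against 5558 in the wild-type and 6099 against 5176 in the Thpok-sufficient library. When cells were thinned to 2000 UMIs and called again, members made up 9.75% and 9.41% of cells. The 55 and 32 cells with fewer UMIs were left out. Of barcodes just outside the limit on genes (400 to 499), 0 of 17 and 1 of 14 met the rule on the receptors, and of those just inside it (500 to 599), 1 of 13 and 0 of 11. The 2 libraries shared 3 barcodes.

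Ifng, Tbx21, Bhlhe40 and Furin, 4 Th1 markers that the rule did not use, were higher in members. Ifng stood at 289 CPM in wild-type members and 416 in Thpok-sufficient members, against 108 and 145 in the other cells. Both member values lay above both other values, and the difference was 1.47 ± 0.08 on the log2 scale (SE, 2 libraries; adjusted p = 4.86e-37, edgeR quasi-likelihood test with the library as block). Empty droplets held 148 and 303 CPM of Ifng, above the other cells of the same library and below the members. Members stood at 2.06 and 1.36 times these levels before TMM scaling. An Ifng UMI in a cell of either class therefore does not by itself show expression. In members 1 cell gave 23.8% of the Ifng UMIs in the wild-type and 12.8% in the Thpok-sufficient library, and without these cells the difference was 1.27. Tbx21 was at 41.2 and 46.6 CPM in members against 21.9 and 27.8 in other cells, a log2 difference of 0.83 ± 0.14 (adjusted p = 2.15e-07). Bhlhe40, a repressor that sustains interferon gamma production, was at 603 and 504 CPM against 173 and 144, a difference of 1.80 ± 0.08 (adjusted p = 5.63e-49). Furin, a protease that processes proproteins, was at 139 and 313 CPM against 55.1 and 100.4, a difference of 1.50 ± 0.09 (adjusted p = 6.19e-34). For Furin the wild-type members lay above both sets of other cells but below the Thpok-sufficient members, so that this gene varied between libraries as well as between classes.

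Cell by cell the markers were far from universal. In cells thinned to 2000 UMIs, members held UMIs of 1.18 and 1.29 of the 4 markers Ifng, Tbx21, Bhlhe40 and Furin on average, against 0.525 and 0.552 in the other cells. None of the 4 was detected in 24.9% and 24.0% of members, against 58.0% and 57.5% of other cells. A Tbx21 UMI was found in 9.14% and 8.65% of members against 4.15% and 5.24% of other cells, and a Bhlhe40 UMI in 58.3% and 55.4% against 20.7% and 17.0%. The label Th1 therefore rests on the summed levels, and at this depth many single members show none of these 4 transcripts.

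Across all 10099 genes tested, 1450 (14.4%) were higher and 1312 (13%) lower in members at an adjusted p under 0.05, so 27.3% of genes were called in one direction or the other. For 24.3% of genes the call was joined by classes that did not overlap over the 2 libraries. The median log2 difference over all genes was -0.03. These calls depend on the block: without it 41 were higher and 15 lower, and with DESeq2, block included, 521 and 351. The size of an adjusted p depended on the fit as well, being 4.71e-08 for Gzmb without the filter on low counts and 0.017 without the block.

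**Figure D1:**
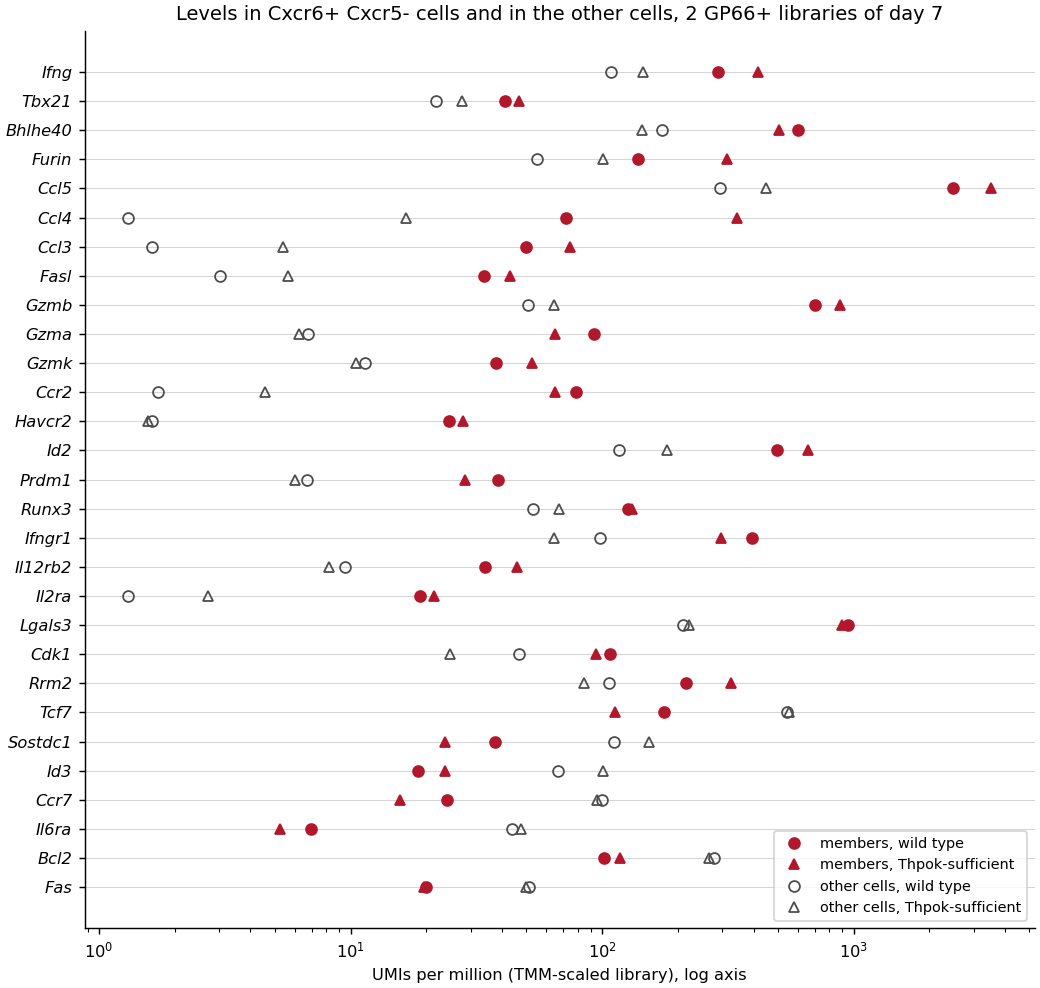
Levels of genes named in the text in members (Cxcr6 UMI, no Cxcr5 UMI) and in the other cells, in CPM on a log axis, with 1 point per class and library. In Gzmb the member points stand at 702 and 885 CPM and the other points at 50.9 and 64.1, and in Tcf7 the order is the reverse.

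Of the 27 genes of the Th1 programme tested, Cxcr6 left out, 24 rose and 1 fell in members, with a median log2 difference of 1.50. The list holds Th1 regulators, receptors and effector products, and its largest differences lay in chemokines and chemokine receptors. Ccl4, an inflammatory chemokine, was at 72.0 and 344 CPM in members against 1.30 and 16.5 in the other cells, a difference of 4.65 ± 0.13 (adjusted p = 4.08e-73). Its member and other values did not overlap, but 1 member cell gave 36.9% of its UMIs in the wild-type and 39.0% in the Thpok-sufficient members, and without these cells the difference was 3.94. Ccl3, a chemokine of the same cluster, was at 49.7 and 74.7 CPM against 1.63 and 5.41, and its difference of 4.22 was 3.65 without the highest cell of each library. Ly6c2, a surface marker of Th1 effectors, rose by 1.74 and Selplg, the selectin ligand PSGL-1, by 0.89. Cxcr3, the receptor for interferon-induced chemokines, was the list member that fell: it stood at 284 and 175 CPM in members and 304 and 255 in the other cells, a difference of -0.30 (adjusted p = 0.00318), and the wild-type members lay above the Thpok-sufficient other cells. Stat4, which relays the signal of interleukin 12, differed by 0.18 (adjusted p = 0.0864) and Ly6c1 by 1.20 (adjusted p = 0.104) and did not pass.

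Cytotoxic granule genes were higher in members, 11 of 13 against 1 that fell, with a median of 2.02. Gzmb stood at 702 and 885 CPM in members and 50.9 and 64.1 in the other cells, a difference of 3.79 ± 0.09 (adjusted p = 2.32e-87). After thinning, a Gzmb UMI was found in 50.0% and 53.8% of members and in 3.50% and 4.30% of other cells. The Gzmb level in empty droplets was 95.4 and 203 CPM, above that of the other cells and below that of the members in both libraries. Gzma was at 92.9 and 65.2 CPM against 6.77 and 6.24, a difference of 3.61 ± 0.15 (adjusted p = 1.81e-50). When the cells with 3 or more Cd8a and Cd8b1 UMIs or 10 or more myeloid, B cell and erythroid marker UMIs were left out, 4 members in each library, the Gzma difference was 2.58, while that of Gzmb was 3.76. The Gzmb difference was 4.52 without cycling cells and 3.06 when members were called again after thinning. Gzmk, a granzyme of less differentiated cytotoxic cells, rose by 2.02, Serpinb9, the inhibitor that protects cells from granzyme B, by 2.31, and Nkg7, a granule membrane protein, by 1.50. Prf1, the pore-forming perforin, was low at 6.94 and 1.90 CPM in members against 0.897 and 0.208, a difference of 2.96. It met the filter on low counts only through the members, so its call, counted among the 11, is a description and no support. In the fit of 3 classes Prf1 did not meet the filter. Cst7, an inhibitor of granule proteases, was the gene that fell, by 0.36.

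Cytokines and ligands were divided, with 7 higher and 10 lower of 21 tested and a median of -0.25. Ccl5, the chemokine RANTES, was the most abundant of those that rose, at 2489 and 3530 CPM in members against 294 and 446 in other cells, a difference of 3.03 ± 0.08 (adjusted p = 1.97e-81). Fasl, the ligand that triggers death of Fas-bearing cells, was at 33.9 and 42.8 CPM against 3.02 and 5.62, a difference of 3.19 ± 0.23 (adjusted p = 2.85e-27). Lower in members were Tnf, an inflammatory cytokine (9.25 and 11.9 CPM against 20.8 and 35.3, a difference of -1.38), Lta (-2.03) and Ltb (-0.78), which encode the lymphotoxins, and Il21, the helper cytokine of Tfh cells (-1.35). Il2, the T cell growth factor, differed by 0.46 (adjusted p = 0.118) and did not pass.

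Receptors for chemokines and adhesion were higher for 10 and lower for 6 of 18 genes, with a median of 0.36. Ccr2, a receptor for monocyte chemokines, was at 78.6 and 64.7 CPM in members against 1.71 and 4.58 in the other cells, a difference of 4.58 ± 0.20 (adjusted p = 6.22e-50). Cd226, an activating adhesion receptor, rose by 1.55. Ccr7, which directs T cells into the T zone of lymphoid organs, was at 24.3 and 15.7 CPM in members against 99.9 and 95.8, a difference of -2.27 ± 0.14 (adjusted p = 2.29e-33). Members and other cells did not overlap for Ccr2, Cd226 or Ccr7.

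Cytokine receptors and STAT genes had 10 higher and 6 lower of 28, with a median of 0.05, close to that of all genes. The 3 named genes that rose bind inflammatory cytokines or interleukin 2. Il2ra, the high-affinity interleukin 2 receptor chain, was at 18.9 and 21.4 CPM in members against 1.30 and 2.70, a difference of 3.37 ± 0.32 (adjusted p = 7.33e-18). Il12rb2, the chain that lets Th1 cells respond to interleukin 12, rose by 2.14 and Ifngr1, the interferon gamma receptor, by 2.09. Il6ra, the receptor for interleukin 6, fell from 43.7 and 47.8 CPM in other cells to 6.94 and 5.24 in members, a difference of -2.88 ± 0.20 (adjusted p = 1.30e-27).

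Effector transcription factors were higher for 9 and lower for 3 of 16, with a median of 0.54. Id2, an inhibitor of E proteins that favours effector cells, was at 495 and 660 CPM in members against 116 and 181, a difference of 1.98 ± 0.08 (adjusted p = 3.82e-53). Prdm1, encoding Blimp-1, the antagonist of Bcl6, was at 38.5 and 28.6 CPM against 6.69 and 6.03, a difference of 2.40 ± 0.21 (adjusted p = 8.05e-20). Runx3, a partner of T-bet at effector genes, was at 126 and 132 CPM against 53.2 and 67.1, a difference of 1.11 ± 0.10 (adjusted p = 5.03e-20). Gata3, the Th2 regulator, was also detected more in members, at 81.4 and 67.2 CPM against 50.4 and 42.8 before TMM scaling.

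The Tfh programme was lower in members as a group: 21 of 22 genes fell and none rose, with a median of -1.62. Tcf7, encoding TCF-1, which Tfh and memory cells keep, stood at 176 and 113 CPM in members and 543 and 552 in the other cells, a difference of -1.93 ± 0.09 (adjusted p = 8.09e-46). Empty droplets held 333 and 370 CPM of Tcf7, above the members and below the other cells. Sostdc1, a secreted protein of Tfh cells, was at 37.4 and 23.8 CPM against 111 and 154, a difference of -2.06 ± 0.13 (adjusted p = 5.93e-33). Tox2, a nuclear factor of Tfh cells, fell by 2.10, Angptl2 by 2.11, Id3, an E protein inhibitor of less differentiated cells, by 1.97, and Icos, the costimulatory receptor, by 0.50. Bcl6 was scarce in both classes, at 4.62 and 0.476 CPM in members against 8.07 and 8.84, and passed with a difference of -1.63 (adjusted p = 8.46e-04). Pdcd1, encoding PD-1, fell by only 0.28, and Maf (0.14, adjusted p = 0.303) was the gene of the list that did not pass.

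Genes of memory and lymphoid homing fell in 13 of 17 cases and rose in none, with a median of -0.69. Besides Tcf7, Id3, Il6ra and Ccr7, described above, Lef1, a relative of TCF-1, was at 149 and 126 CPM in members against 226 and 218 (-0.69), and Bcl2, a survival factor, at 101 and 118 against 278 and 266 (-1.32 ± 0.09, adjusted p = 5.14e-28). Klf2, which maintains exit from lymphoid organs, differed more between libraries than between classes: it stood at 27.0 CPM in wild-type and 460 in Thpok-sufficient members, and at 33.6 and 891 in the other cells. The difference between classes was -0.82 (adjusted p = 1.29e-12), but the Thpok-sufficient members lay above the wild-type other cells.

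**Figure D2:**
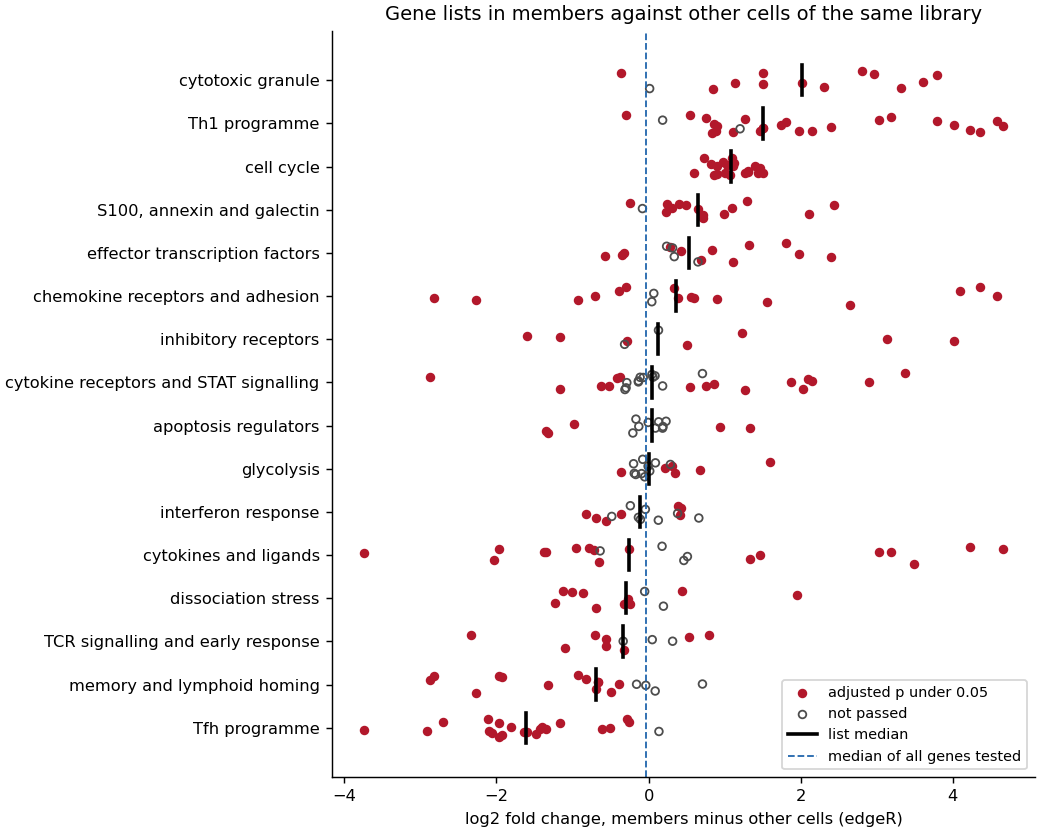
Log2 differences, members minus other cells, of the genes of 16 lists. Each point is a gene, filled points have an adjusted p under 0.05, black bars are list medians and the dashed line is the median of all genes (-0.03). The Th1 (median 1.50), granule (2.02) and cell cycle (1.09) lists lie to the right and the Tfh list (-1.62) to the left.

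All 20 cell cycle genes rose in members, with a median of 1.09. Cdk1, the mitotic kinase, was at 107 and 94.2 CPM in members against 46.7 and 24.8, a difference of 1.51 ± 0.11 (adjusted p = 3.95e-25). Rrm2, which makes deoxynucleotides, was at 215 and 324 CPM against 107 and 84.5 (1.47 ± 0.09), Ccna2, a cyclin, rose by 1.44 and Mcm3, part of the replication helicase, by 1.40. After thinning, a UMI of Mki67 or Top2a was found in 29.7% and 31.7% of members and in 20.8% and 18.7% of other cells. When all cells with such a UMI were left out, Cdk1 (1.06, adjusted p = 0.248) and Ccna2 (0.96, adjusted p = 0.149) no longer passed, and 668 genes were higher and 623 lower. Without those cells the differences of Gzmb, Ifng, Bhlhe40 and Tcf7 still passed.

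The list of S100 proteins, annexins and galectins rose for 13 of 15 genes and fell for 1, S100a11 (-0.24), with a median of 0.65. Lgals1, encoding galectin-1, was at 4537 and 5183 CPM in members against 1868 and 2085 (1.30 ± 0.07, adjusted p = 1.84e-38), and Lgals3, galectin-3, at 952 and 902 against 210 and 222 (2.10 ± 0.08, adjusted p = 6.60e-59). Anxa1, a phospholipid-binding protein, rose by 2.43 and Emp3, a membrane protein, by 1.09. Inhibitory receptors were mixed, 4 higher and 3 lower of 9. Havcr2 was at 24.7 and 28.1 CPM against 1.63 and 1.56, a difference of 4.02 ± 0.31 (adjusted p = 1.95e-24), and Lag3, which binds class II molecules, rose by 1.23, while Cd200 and Btla, both linked to Tfh cells, fell by 1.60 and 1.16.

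Lists of metabolism, signalling and survival lay near the median of all genes. Glycolysis had 5 higher and 1 lower of 16 and a median of 0.00455. Within it Slc2a3, a glucose transporter, rose by 1.59 and Hk2, a hexokinase, by 0.68, Bsg, a chaperone of lactate transporters, rose by 0.35, and Gpi1, a glycolytic isomerase, fell by 0.37. Apoptosis regulators had 2 higher and 3 lower of 14: Bcl2l11, encoding the death inducer BIM, rose by 1.33 and Bcl2l1, encoding the survival protein BCL-XL, by 0.94, while Fas, the death receptor, fell by 1.35 beside Bcl2. Interferon-induced genes had 3 higher and 4 lower of 15, with Bst2 (0.43) higher and Isg20 (-0.82), Usp18 (-0.69) and Rtp4 (-0.55) lower.

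Early response genes of T cell receptor signalling fell in 6 and rose in 2 of 11 cases, with a median of -0.33. Egr2, induced by receptor signals, was at 2.31 and 7.14 CPM in members against 13.6 and 33.6 (-2.34 ± 0.27, adjusted p = 2.53e-13), Egr1 fell by 1.10 and Nfatc1 by 0.70, and Tnfrsf9, the costimulatory receptor 4-1BB, rose by 0.79. Genes that respond to tissue dissociation fell in 8 and rose in 2 of 12 cases (median -0.30). Fos was at 42.4 and 120 CPM in members against 104 and 242 in the other cells (-1.12 ± 0.10, adjusted p = 8.98e-20), Zfp36 fell by 1.01 and Jun by 0.87. Members of the Thpok-sufficient library lay above the other cells of the wild-type library for Fos, so the classes were ordered within each library and not across them. The mitochondrial share of UMIs was lower in members as well, with medians of 2.80% and 3.37% against 3.33% and 4.04%, and its part in these differences was not tested.

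Outside the lists, members stood apart from the other cells in genes of several kinds. Ifitm1, a membrane protein that restricts virus entry, was at 42.4 and 37.1 CPM against 2.45 and 1.14 (4.44 ± 0.27, adjusted p = 3.17e-34), although single cells gave 30.9% and 39.7% of its member UMIs and the difference was 3.89 without them. Its neighbours Ifitm2 and Ifitm3 rose by 2.99 and 2.80. Ermn, an actin-binding protein, was at 22.7 and 24.3 CPM against 0.652 and 3.12 (3.78 ± 0.33, adjusted p = 5.54e-21), and AA467197 at 38.9 and 39.0 against 2.85 and 2.91 (3.75 ± 0.24). Also higher were Ggt1, which breaks down glutathione (2.78), Sytl2, which carries granules to the membrane (2.66), the cell cycle inhibitor Cdkn1a (2.56), Ctla2a (2.25), the chemokine signalling inhibitor Rgs1 (2.24), Arsb (1.96), Chsy1 (1.90), Sema4a (1.89), the redox enzyme Glrx (1.88) and the killer cell receptor Klrd1 (1.87).

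Lower in members outside the lists was Padi4, a protein-citrullinating enzyme, at 8.09 and 2.86 CPM against 38.5 and 36.7 in the other cells (-2.72 ± 0.22, adjusted p = 6.18e-23). Lpp, an adhesion adaptor, stood at 26.2 and 15.7 CPM against 103 and 118 (-2.36 ± 0.14, adjusted p = 2.14e-35). Slfn5 (-2.53), Tshz2 (-2.39), Nav2 (-2.30), Fam101b (-2.16), Nsg2 (-2.12), Matk (-2.08), the activation marker Cd83 (-2.05), Fam43a (-2.03), Tbc1d4, which controls glucose transporter traffic (-1.84), Rgs10 (-1.82), Tnfrsf26 (-1.79) and the adenosine kinase Adk (-1.73) were lower too. These genes were taken as the largest differences whose classes did not overlap, so the lack of overlap is part of how they were chosen.

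The comparison class was then divided into 1197 cells with a Cxcr5 UMI and no Cxcr6 UMI, the receptor of Tfh cells, and 2448 cells with neither UMI. Against the Cxcr5-positive cells 1347 genes (13.9%) were higher and 1293 (13.4%) lower in members, of 9676 tested. The Th1 programme rose for 25 of 26 genes and fell for none (median 1.99), and the Tfh programme fell for 21 of 22 (median -1.84), beside an all-gene median of -0.03. Gzmb was nearly missing from the Cxcr5-positive cells, at 4.54 and 2.59 CPM (22 and 8 UMIs), a difference from members of 7.65 ± 0.17 (adjusted p = 2.97e-12). These levels are below the 95.4 and 203 CPM of the empty droplets. After thinning, a Gzmb UMI was seen in 0.751% and 0.962% of Cxcr5-positive cells.

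Several genes were so scarce in Cxcr5-positive cells that the ratio of pooled UMIs is given with its 95% interval, which covers counting error only. Ccr2 had 340 UMIs in members and 4 in Cxcr5-positive cells, a ratio of 148 (57.3 to 547). Havcr2 had 123 against 4, a ratio of 53.6 (20.4 to 200), and Ifitm1 188 against 2, a ratio of 164 (44.7 to 1362). Il2ra, with 94 against 3, had a ratio of 54.6 (18.1 to 269) and Ermn, with 110 against 3, of 63.9 (21.3 to 314). Ccl4 had a ratio of 83.4 (53.1 to 139) and AA467197 of 24.5 (14.0 to 46.9). Ifng differed by 1.46 and Tbx21 by 0.82 on the log2 scale. Genes lowest in members relative to the Cxcr5-positive cells were Padi4 (-3.03), Il6ra (-2.96), Lpp (-2.76), Sostdc1 (-2.56), Nav2 (-2.54), Slfn5 (-2.53), Tshz2 (-2.52) and Cd83 (-2.52).

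Against the cells with neither UMI, which may include members missed at this depth, 1306 genes (13.5%) were higher and 1185 (12.2%) lower. The Th1 programme rose for 24 of 26 genes and fell for 1 (median 1.50), the Tfh programme fell for 17 of 22 and rose for 1 (median -1.51), and all 20 cell cycle genes rose (median 1.11). The all-gene median was -0.03. Both comparisons use the same members, so their calls are not independent of each other.

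**Figure D3:**
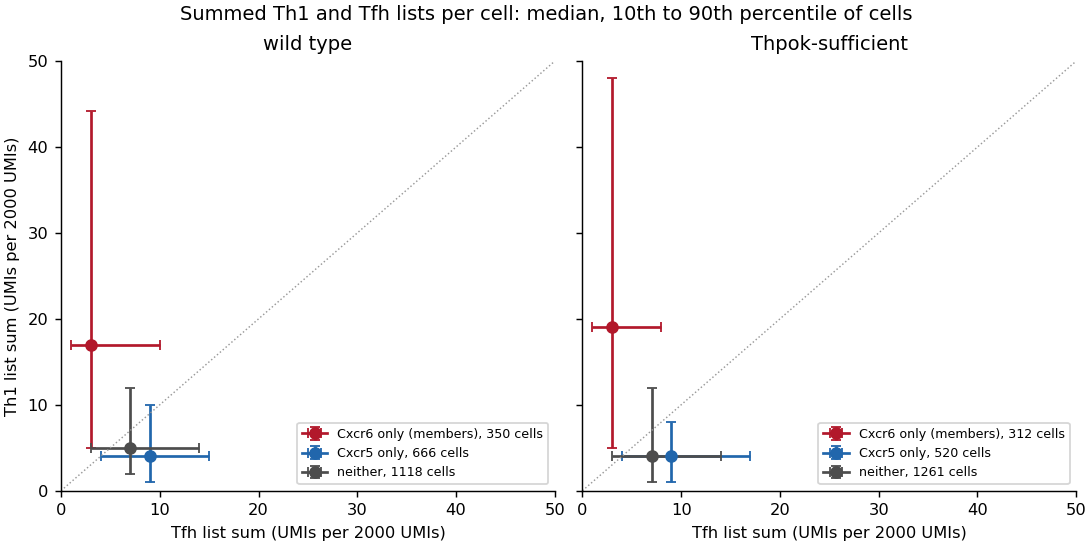
Summed UMIs of the Th1 list and of the Tfh list per cell after thinning to 2000 UMIs, for members, Cxcr5-positive cells and cells with neither UMI, in each library. Points are medians and bars run from the 10th to the 90th percentile of cells. Members have median Th1 sums of 17 and 19 and median Tfh sums of 3 and 3.

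Members varied widely among themselves. After thinning to 2000 UMIs the Th1 list summed to a median of 17 UMIs in wild-type and 19 in Thpok-sufficient members, with 10th to 90th percentiles of 5 to 44.2 and 5 to 48. The Tfh list summed to a median of 3 in both. In the other cells the medians were 5 and 4 for the Th1 list and 8 and 8 for the Tfh list. Cxcr6 and Cxcr5, which the rule used, are left out of the 27 Th1 and 23 Tfh genes summed. The Tfh sum exceeded the Th1 sum in 56 of 350 (16%) and 35 of 312 (11.2%) members, against 65.9% and 69.1% of other cells.

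Within the members Gzmb and Tcf7 seldom met in 1 cell. Of thinned members with a Gzmb UMI, 7.43% and 7.14% also had a Tcf7 UMI, against 38.3% and 29.2% of members without a Gzmb UMI. Empty droplets held more Tcf7 than members did, so a Tcf7 UMI in a member does not by itself show expression. Ccl5 went the other way, found in 75.4% and 78.0% of members with a Gzmb UMI and in 38.3% and 47.9% of those without. Cycling cells, with a Mki67 or Top2a UMI, made up 39.4% and 36.3% of the members with Gzmb and 20% and 26.4% of the rest, with intervals that lie apart in the wild-type library and overlap in the Thpok-sufficient library (29.0% to 44.1% against 19.4% to 34.4%). Ifng was less tied to Gzmb, at 32.0% and 31.0% against 22.9% and 28.5%, and the intervals of these Ifng shares overlap in both libraries. The shares describe cells of 2 captures and were not tested.

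The number of Cxcr6 UMIs per cell was used to order the cells without a Cxcr5 UMI. In the wild-type library Gzmb went from 56.5 CPM in cells without Cxcr6 to 434 with 1 UMI, 741 with 2, 835 with 3 to 4 and 1190 with 5 or more. In the Thpok-sufficient library the same steps were 86.3, 596, 720, 935 and 1467 CPM. Members with a single Cxcr6 UMI lay lowest among the members in both libraries, yet far above the cells without one. Tcf7 ran the other way, from 550 through 324, 196 and 52.6 to 58.5 CPM in the wild-type library and from 501 through 170, 86.7 and 91.1 to 39.0 in the Thpok-sufficient library. The Sostdc1 UMIs of members came mostly from those with a single Cxcr6 UMI, 90 in wild-type and 36 in Thpok-sufficient members, and 0 and 1 came from members with 5 or more. In the wild-type library these single-UMI members, with 94.99 CPM of Sostdc1, lay above the cells without Cxcr6, at 70.4. Bhlhe40 was higher at each step, from 187 through 424, 567 and 800 to 901 CPM and from 139 through 370, 469 and 543 to 717. Ifng had no such order: it was highest at 2 UMIs in the wild-type library (590 CPM) and at 3 to 4 UMIs in the Thpok-sufficient library (628 CPM), and stood at 351 and 328 CPM with 5 or more. Single cells weigh on these levels: 1 cell gave 66.1% of the Ifng UMIs of the wild-type members with 2 Cxcr6 UMIs. With the highest cell of each bin left out, Ifng went through 125, 202, 197 and 294 CPM in the wild-type and 239, 313, 423 and 251 CPM in the Thpok-sufficient members. Tbx21 went from 22.1 CPM without Cxcr6 through 33.8, 50.1 and 45.4 to 52.7 in the wild-type library and from 25.1 through 41.1, 71.7 and 41.6 to 41.3 in the Thpok-sufficient library, with no steady order among the members. The bins hold 137, 69, 80 and 68 members of the wild-type and 134, 47, 78 and 56 of the Thpok-sufficient library, and since Cxcr6 chose the members they are described without a test.

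**Figure D4:**
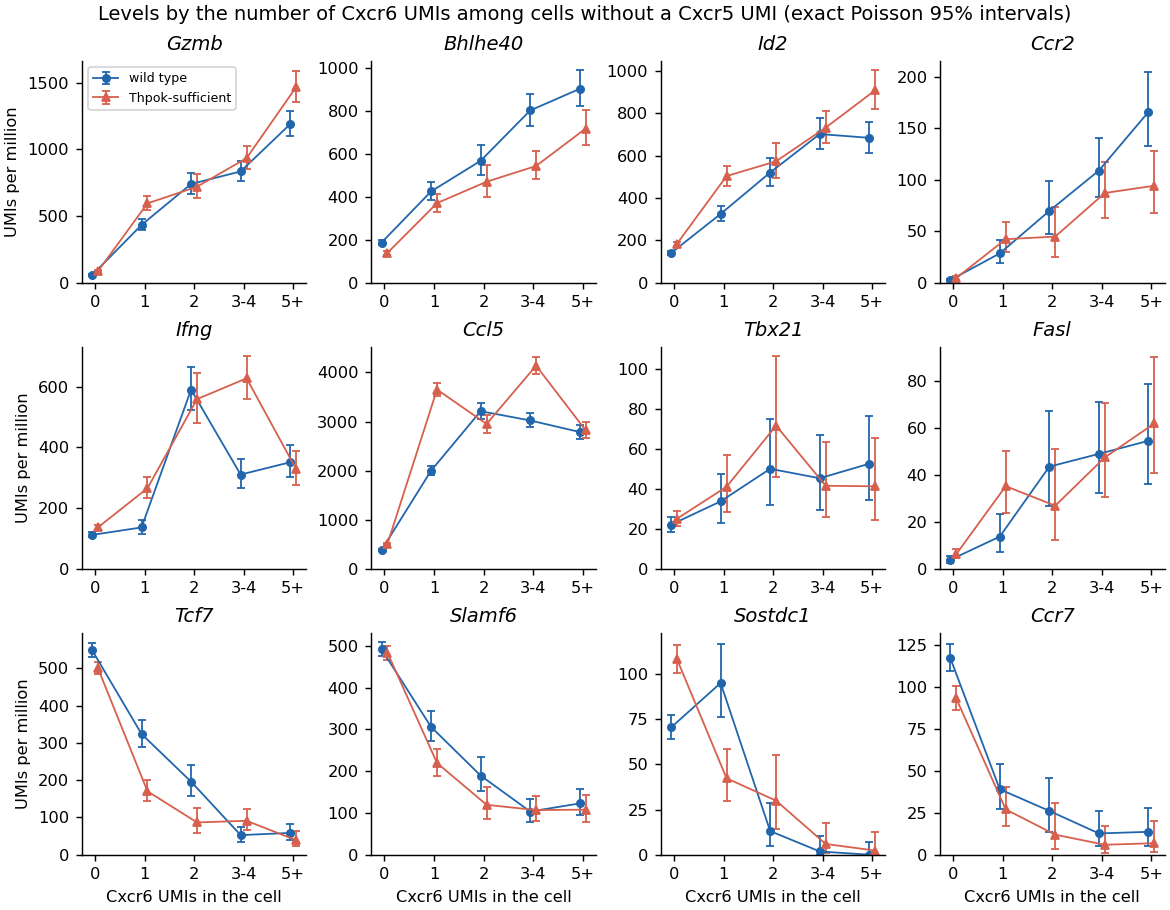
Levels of 12 genes, in CPM, in cells without a Cxcr5 UMI by the number of Cxcr6 UMIs (0, 1, 2, 3 to 4, 5 or more), with 1 line per library and bars of the exact 95% Poisson interval. Gzmb climbs from 56.5 to 1190 CPM in the wild-type library while Tcf7 goes from 550 to 58.5 CPM.

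The genes around Cxcr6 on chromosome 9 were looked at because Ccr2, which led the receptors, lies beside it. Cxcr6 spans chr9:123806475-123811760 on the plus strand (GENCODE vM21, GRCm38). Within 500000 bases on each side are 15 other protein-coding genes, of which 10 were tested, 7 were higher in members and 0 lower, where 14.4% of all genes were higher. Ccr9, the receptor of gut-homing cells, differed by 3.61, Ccr1, another inflammatory chemokine receptor, by 3.40, Lztfl1, a ciliary trafficking protein, by 1.56, Fyco1, a vesicle transport adaptor, by 0.73 and Sacm1l, a lipid phosphatase, by 0.41. Lars2, Limd1 and 2010315B03Rik did not pass. Lztfl1 lies within the span of Ccr9 on the opposite strand and Cxcr6 within that of Fyco1, so reads of these overlapping pairs may not be fully separable. The window was chosen after the values were seen and is a description.

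The same rule was applied to CD4-like cells (with Cd4 detected and neither Cd8a nor Cd8b1) of the 2 total CD44high libraries, which the choice of members did not use. There 277 of 1492 (18.6%) and 147 of 563 (26.1%) cells were members. Empty droplets of these libraries held 258 and 259 CPM of Cxcr6, against 41.4 and 58.0 in the GP66+ wild-type and Thpok-sufficient libraries. The part of this free RNA in the choice of members was not tested. Of 8438 genes tested, 947 (11.2%) were higher and 780 (9.24%) lower than in the other CD4-like cells. Most of the 90 genes named for the GP66-specific members were chosen by the size of their differences in the GP66+ libraries. Of the 90, 87 were tested in the total libraries, 86 had the same direction and 76 passed in that direction. The share with the same direction over all genes was not counted. The exception in direction was Lag3, at 24.9 and 91.6 CPM in members against 41.7 and 77.7 in other cells (-0.17, adjusted p = 0.566). Gzmb stood at 491 and 922 CPM against 37.6 and 98.8 (3.46 ± 0.12), Bhlhe40 at 78.2 and 112 against 10.5 and 20.7 (2.68 ± 0.19), and Ifng at 58.1 and 136 against 13.5 and 24.5 (2.29 ± 0.18), each with members above other cells in both libraries. Empty droplets of the total libraries held 813 and 1394 CPM of Gzmb, above both classes. The part of this free RNA in the Gzmb difference was not tested. For Ifng 1 cell gave 38.1% and 33.6% of the member UMIs, and without it the members were at 34.9 and 95.04 CPM, against 12.9 and 24.8 in the other cells, before TMM scaling.

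The size of the differences was compared between the GP66+ and the total libraries in 1 fit of CD4-like cells with an interaction term. In this fit 930 genes were higher and 784 lower in GP66-specific members, 812 and 659 in members of the total libraries, and 584 higher and 446 lower calls were shared, which is 60.1% of the calls in the GP66+ and 70.0% of those in the total libraries. The interaction passed for 2 of 8932 genes (0.0224%). Ccl5 differed by 3.09 in the GP66+ and 2.17 in the total libraries, a gap of 0.92 ± 0.11 (adjusted p = 0.00434), and Gzma by 2.78 and 0.95, a gap of 1.83 ± 0.26 (adjusted p = 0.0282). The total libraries contain CD8+ cells, and their empty droplets held 13924 and 8976 CPM of Ccl5 and 2982 and 1747 CPM of Gzma, against 591 and 1094 CPM of Ccl5 and 11.7 and 25.4 CPM of Gzma in the GP66+ libraries. The part of this free RNA in the 2 gaps was not tested.

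**Figure D5:**
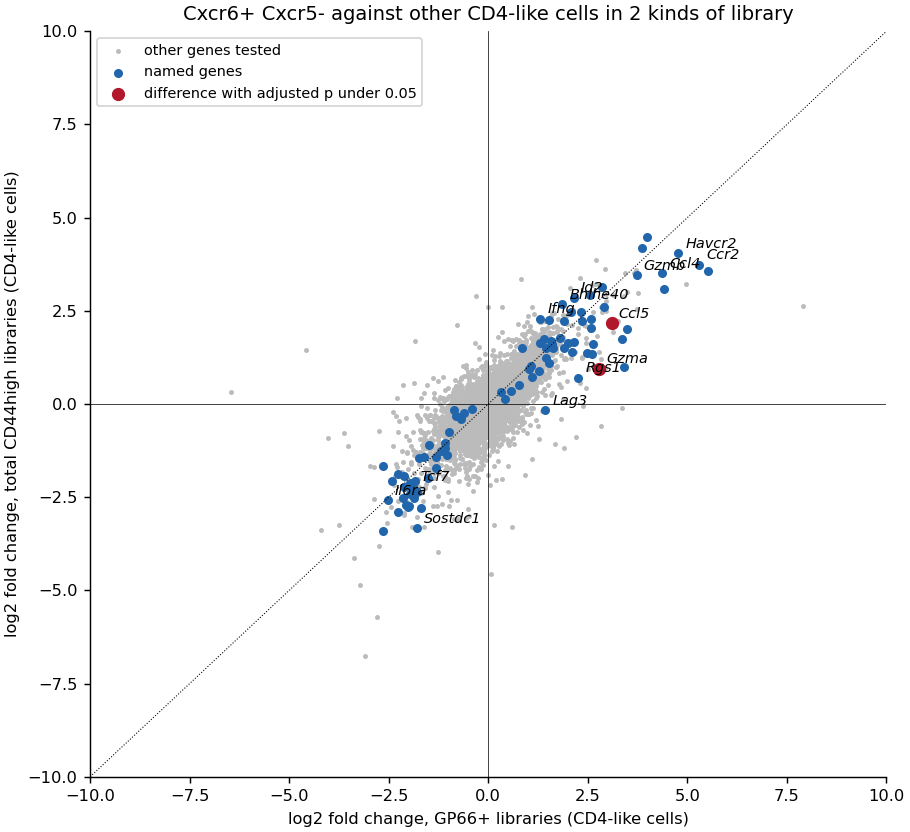
Log2 differences between members and other CD4-like cells in the GP66+ libraries (horizontal axis) and the total CD44high libraries (vertical axis), for 8932 genes. Blue points are the genes named in the text, the dotted line marks equal differences, and the 2 genes in red, Ccl5 and Gzma, are those whose difference passed the interaction test, and both lie further from 0 in the GP66+ libraries.

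Members by the same rule were last set beside those of the other libraries, where each group is 1 library and no test is possible. At day 7 they made up 689 of 1333 (51.7%) Thpok-deleted cells, at day 30 64 of 725 (8.83%) Thpok-sufficient cells and 311 of 736 (42.3%) Thpok-deleted cells, with median depths per cell of 5866, 2017 and 2440 UMIs. Empty droplets of these libraries held 188, 65.4 and 354 CPM of Cxcr6, and the part of this free RNA in the shares was not tested. Zbtb7b, the gene of Thpok, was at 24.7 CPM in wild-type and 24.5 in Thpok-sufficient members of day 7 and had no UMI in Thpok-deleted members of day 7. Gzmb in members stood at 737 CPM (here without TMM scaling) in the wild-type and 874 in the Thpok-sufficient cells of day 7, 1428 in the Thpok-deleted library of day 7, and 33.4 and 410 in the Thpok-sufficient and Thpok-deleted libraries of day 30. The Thpok-deleted levels carry little contrast with free RNA, since empty droplets of that day 7 library held 1383 CPM of Gzmb. The level of 33.4 CPM at day 30 rests on 5 UMIs (interval 10.9 to 78.0).

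In Thpok-sufficient members Ifng was at 411 CPM on day 7 and 354 on day 30, with intervals of 384 to 439 and 265 to 463. The day 30 value rests on 53 UMIs, 43.4% of them from 1 cell, and leaving out the highest cell gives 361 CPM on day 7 and 202 on day 30. Bhlhe40 was at 498 and 568 CPM and Furin at 309 and 341 CPM on these days, or 296 and 251 without the highest cell for Furin. Other genes were further apart: Il7r, the interleukin 7 receptor of resting and memory cells, stood at 16.5 CPM in Thpok-sufficient members of day 7 and 421 in those of day 30, and Lgals3 at 891 and 140 CPM. The proliferation gene Mki67 was at 98.3 CPM on day 7 and had no UMI on day 30, where the interval reaches 24.7 CPM. Il7r was likewise higher in the other cells of day 30, at 434 CPM against 7.04 on day 7. The Tbx21 levels of members ranged from 43.3 CPM in the wild-type library to 123 in the Thpok-deleted library of day 30.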

How the data were processed

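Spleen T cells of 7 libraries were captured with 10x Single Cell 3′ v2 reagents, per the labels' protocols. The authors deposited raw UMI counts for all barcodes, empty droplets included. Per the submitters' processing notes these come from bcl2fastq 2.17 and Cell Ranger (version not stated) with mm10. Member cells hold 2470211 UMIs in the wild-type and 2126457 in the Thpok-sufficient library, and the other cells 11888717 and 10361970.

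For each library the UMIs of a class were added up per gene, and these sums entered edgeR 4.0.16 in R 4.3.3 (TMM, filterByExpr, quasi-likelihood test, adjusted p under 0.05 by Benjamini-Hochberg) with the library as block. The block is a shared capture. The filter can keep a gene through its counts in a single class, as with Prf1. Residual degrees of freedom were 1 for members against other cells and for the total libraries, and 2 for the fit of 3 classes and for the interaction, so the p-values lean on the spread shared across genes. A standard error is the absolute log2 difference divided by the root of the F statistic. Scripts were tested on simulated data. Genes named are the Th1 markers, up to 4 called genes per list at 20 CPM or more, up to 15 per direction outside the lists (8 for Cxcr5-positive cells), and a few others for their role, chosen after their values were seen. The members and lists were chosen with earlier results of these data known. Shares carry exact 95% intervals and levels Poisson intervals, for counting error only. Scrublet (scanpy 1.11.5) called few doublets (0.442% and 0.464%), so they were left in, and leaving them out was an alternative. All 265 gene identifiers looked up had a GENCODE vM21 position and 68 of 90 named genes a RefSeq promoter. DESeq2 1.42.0, no block, no filter, thinning, depth matching, other member thresholds and cell filters were tried as alternatives. Leaving out cells of other types or the member cell highest for a gene was chosen after seeing the data. A few genes are left unnamed and enter only the counts and medians.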

Additional observations from a re-analysis of the deposited data

Results flagged for a closer look

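Ccl5 and Gzma differed between the GP66+ and the total CD44high libraries in how far members stood above other CD4-like cells, by the interaction term of 1 edgeR fit over 4 libraries. For Ccl5 the gap, GP66+ minus total, was 0.92 on the log2 scale (adjusted p = 0.00434). In the total libraries it stood at 6176 and 3494 CPM in members and at 1401 and 752 CPM in other CD4-like cells, and empty droplets held 13924 and 8976 CPM, above both classes. For Gzma the gap was 1.83 (adjusted p = 0.0282), with 201 and 69.7 CPM in members of the total libraries, 107 and 33.9 CPM in other cells and 2982 and 1747 CPM in empty droplets. The part of free RNA from CD8+ cells in either gap was not tested. Of the other named genes, Il2ra (gap 2.42, adjusted p = 0.1835), Ifitm1 (1.95, adjusted p = 0.961) and Fasl (1.62, adjusted p = 0.387) did not pass. Neither did Lag3 (1.60, adjusted p = 0.0929), Ccr2 (1.56, adjusted p = 0.401) or Rgs1 (1.55, adjusted p = 0.124).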

How the results depend on the processing

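With no replicate block, that is without the library in the design, the calls fell to 41 higher and 15 lower for members against other cells, 304 and 244 against Cxcr5-positive cells, 150 and 87 against cells with neither UMI, and 142 and 59 in the total libraries; 62 of 90 named genes lost the call against other cells. The blocks are captures shared by both classes. DESeq2 gave 521 and 351, 687 and 527, 627 and 432, and 217 and 108 for these comparisons and lost Bst2, Hk2, Hspa1a, Rtp4, Tnfrsf9 and Usp18. With no filter 873 and 858 were called against other cells. Thinning with members as before gave 751 and 640, 696 and 624, and 693 and 585 for the first 3, and calling members again after thinning 442 and 419, 415 and 429, and 405 and 380. Matching on UMIs left 689 and 633 against cells with neither UMI. Without cycling cells the counts were 668 and 623, 654 and 659, and 625 and 583, and Hspa1a, a heat shock gene at -0.69, turned to 0.20 (adjusted p = 0.647). The fewer UMIs of thinned, matched or removed cells lower the power; other causes were not tested.

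The share of members fell after thinning to 14.9% and 17.1% in total replicates 1 and 2, 9.75% in wild-type, 9.41% in Thpok-sufficient and 28.4% in Thpok-deleted cells of day 7, and 6.20% and 31.4% in Thpok-sufficient and Thpok-deleted cells of day 30. With 2 or more Cxcr6 UMIs the shares were 12.4%, 17.9%, 9.60%, 8.39%, 29.6%, 1.79% and 19.97% in that order. Among cells with a Cd4 and no Cd8 UMI they were 6.60% and 46.9% at day 30. Leaving out a library gives values without a test, since no residual degrees of freedom remain: Ccl4 ranged from 4.40 to 5.77, Ccr2 from 3.84 to 5.51 and Gzmb from 3.78 to 3.81. Over 130 named results and 2038 alternative values, 1746 were unchanged, 100 lost the call, 191 moved and 1 reversed. Unchanged values kept direction and call or, where no test was run, lay within the standard error of the main value. Moved values lay outside it, and all came from leaving out a library or the highest member cell. Against other cells, 56 of 90 named genes moved when the wild-type library was left out. Leaving out the Thpok-sufficient library also moved 56.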

Other observations

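The neighbourhoods of 3 other leading genes were also counted, within 500000 bases on each side and after the values were seen. Each count includes the leading gene itself, unlike the count around Cxcr6. Over all genes tested 14.4% were higher and 13% lower in members. Around Ifitm1 on chromosome 7, 29 of 58 protein-coding genes were tested, 5 were higher in members and 2 lower. Around Ccl4 on chromosome 11, 15 of 28 were tested, 5 higher and 1 lower, and around Gzmb on chromosome 14, 10 of 30 were tested, 3 higher and 0 lower. The 3 higher genes around Gzmb were Gzmb itself, the granzyme Gzmc (2.81) and the leukotriene receptor Ltb4r1 (2.55).

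The 104 cells with a UMI of both receptors were not members. After thinning, their median Tfh list sums were 9 and 8.5 UMIs and their Th1 list sums 4 and 5.5 UMIs, and the Tfh sum exceeded the Th1 sum in 70.8% of 72 wild-type and 65.6% of 32 Thpok-sufficient cells.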
